A study of Mus musculus with 10 samples.

Results

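Gene deserts were defined here as all autosomal positions of the mm10 genome at least 500 kb from the start of the nearest protein-coding gene in the GENCODE annotation. The 8 peak lists placed 28672 summits in these deserts, out of 808182 on the autosomes and 819399 on all chromosomes kept. A summit is the position of highest enrichment within a peak, and each list contributes its own summits, so a locus held by several lists is counted once for each list. The rule used position only, and no measured value chose the members.

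The cells were AB17, primary hepatocytes of an Arid1a fl/fl C57BL/6 mouse that had received SV40 large T antigen for immortalization and then the oncogenic H-Ras V12D virus, so both genotypes carry both agents. Cells infected with Ad-GFP kept Arid1a and are called WT, and cells infected with Ad-Cre are the Arid1a-/- cells, called KO. Chromatin immunoprecipitation followed by sequencing gave lists for H3K9me3 and H3K27me3 in WT and KO cells, and for Arid1a, Brg1, Ctcf and Rad21 in WT cells only. Each group was 1 library of 1 cell line without a replicate, and the 2 inputs entered only through the peak calling of the authors. No difference therefore has a replicate check or a test, and every interval covers counting error only. The intervals also treat summits as independent, which neighbouring summits are not, so they are too narrow. The read depth is unknown from the lists, so depth, antibody efficiency and genotype cannot be told apart in any contrast of WT with KO. Peak lists carry no expression, so neither the hepatocyte identity of the line nor the loss of Arid1a in KO cells was checked here.

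Gene deserts are long stretches without coding genes. Some hold distal enhancers of developmental genes, and many are AT-rich, late replicating and attached to the nuclear lamina. H3K9me3 marks constitutive heterochromatin and silences transposable elements, and H3K27me3 is deposited by Polycomb repressive complex 2, typically near developmental regulators. Arid1a and the ATPase Brg1 belong to SWI/SNF, a complex that moves nucleosomes. Ctcf is a sequence-specific zinc finger protein, and Rad21 is the kleisin subunit of the cohesin ring that Ctcf stalls at loop anchors.

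The autosomes held 389 deserts, with a median length of 551 kb and a range from 1240 to 4419284 bp, and 121 of them were at least 1 Mb long. They contained 287 Mb of sequenced (non-N) bases, which is 12.0% of the 2396 Mb of such sequence on the autosomes. In 15 deserts no base was sequenced, which left 374. Desert sequence was 37.8% GC and 40.1% soft-masked as repeats in the reference, against 42.5% and 32.6% in the rest of the autosomes. The deserts were not empty of annotation, since 13.8% of their sequence lay inside the body of a long protein-coding gene that starts elsewhere, and 2141 of the 30422 autosomal starts of other genes, such as lincRNAs and pseudogenes, fell in them. Because the rule counts only the outermost start of a gene, 218 inner transcript starts of 58 coding genes also lay in deserts. Within 2 kb of one of these were 3.66% of the WT and 4.19% of the KO H3K27me3 desert summits, and between 0.0678% and 1.75% of those of the other lists.

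To show what was bound or marked so far from coding genes, the reference sequence (RefSeq GRCm38.p6, plus strand) is given for some of the strongest desert summits. The strongest Ctcf summit in any desert and the next one on the list each contained the Ctcf core, written CCANNAGNNGGC, here in capitals.
Ctcf at chr10:15300222-15300282: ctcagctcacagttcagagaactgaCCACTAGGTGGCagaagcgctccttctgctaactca
Ctcf at chr4:84064795-84064855: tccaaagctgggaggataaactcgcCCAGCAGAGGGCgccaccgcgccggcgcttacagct
The strongest H3K9me3 summits of the WT and of the KO list show the repeat state of this mark, with bases outside the repeat mask in capitals. The WT window was masked throughout, and the KO window was unmasked but made of tandem copies.
WT H3K9me3 at chr2:108049496-108049596: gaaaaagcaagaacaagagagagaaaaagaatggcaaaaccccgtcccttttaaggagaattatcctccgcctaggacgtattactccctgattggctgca
KO H3K9me3 at chr16:86820919-86821019: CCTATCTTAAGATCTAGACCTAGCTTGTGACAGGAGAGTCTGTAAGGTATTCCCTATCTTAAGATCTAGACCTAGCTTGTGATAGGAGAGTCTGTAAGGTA
The strongest H3K27me3 summit of the KO list is shown with its CpG dinucleotides in capitals. The Brg1 summit of rank 3 is shown with the letters TGANTCA in capitals, a pattern that covers the AP-1 site but is wider. N stands for any base, and the stretch printed here reads TGATTCA.
KO H3K27me3 at chr5:119085771-119085871: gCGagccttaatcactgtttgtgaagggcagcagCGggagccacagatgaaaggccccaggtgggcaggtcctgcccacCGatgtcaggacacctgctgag
Brg1 at chr10:46785746-46785806: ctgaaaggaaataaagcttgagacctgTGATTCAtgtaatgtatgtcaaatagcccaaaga

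Summits of all 8 lists were sparser in deserts than in the rest of the autosomes, but the lists differed widely in how much sparser. KO H3K9me3 was the least depleted, with 11800 desert summits, or 41.1 per Mb, against 56.7 per Mb elsewhere, a ratio of 0.724 (95% exact interval 0.710 to 0.737). WT H3K9me3 had 6231 desert summits, or 21.7 per Mb against 64.2, a ratio of 0.338 (0.329 to 0.346). Over all summits, the SWI/SNF subunits stood close to WT H3K9me3. Arid1a had 3251 desert summits at 11.3 per Mb against 31.7, a ratio of 0.356 (0.344 to 0.369), and Brg1 had 3420 at 11.9 per Mb against 36.9, a ratio of 0.322 (0.311 to 0.334). Ctcf had 1444 desert summits at 5.02 per Mb against 41.6, a ratio of 0.121. Rad21, with 1714 at 5.96 per Mb against 46.6, had a ratio of 0.128. H3K27me3 was almost absent, with 382 summits in WT and 430 in KO cells. These amounted to 1.33 and 1.50 per Mb, and to ratios of 0.0259 (0.0233 to 0.0286) and 0.0370 (0.0336 to 0.0407). Among summits with a −log10 q-value of 5 or more the order of the lists changed. Arid1a (0.0724) and Brg1 (0.0882) then fell below Rad21 (0.104) and Ctcf (0.129), with WT H3K9me3 at 0.391.

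The fall with distance differed in shape between the lists. H3K27me3 in WT cells went from 94.4 summits per Mb within 2 kb of a coding start to 37.6 at 100 to 200 kb, 3.40 at 500 to 600 kb and 0.127 at 1000 to 1500 kb. Ctcf went on falling inside the deserts, from 7.28 per Mb at 500 to 600 kb to 2.01 at 1500 kb and beyond, and Rad21 fell from 9.47 to 2.31 over the same span. Arid1a changed little there, from 12.3 to 10.4 per Mb, and so did Brg1, from 13.6 to 9.85. KO H3K9me3 was the flattest of all, between 38.4 and 44.8 per Mb in all 6 distance classes inside deserts. Within 2 kb of a coding start it had 42.1 per Mb. WT H3K9me3 instead peaked at coding starts, with 132 per Mb within 2 kb, near the 123 of Arid1a, 148 of Brg1 and 149 of Ctcf. It fell to 24.2 at 500 to 600 kb and 16.5 at 1500 kb and beyond. The border at 500 kb is a point on these gradients and not a step. For KO H3K9me3 the density was 43.6 per Mb in the last 50 kb outside the border and 45.03 in the first 50 kb inside it. For WT H3K27me3 these values were 5.46 and 3.72, and for Ctcf 7.36 and 7.41.

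**Figure D1:**
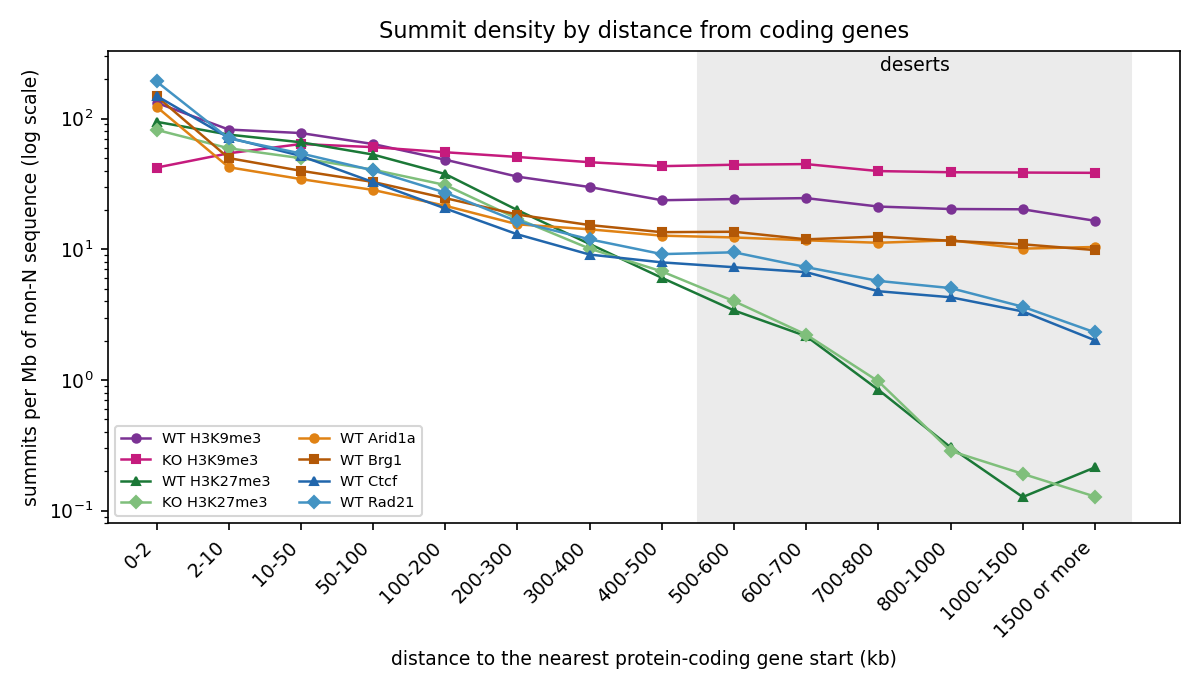
Summits per Mb of non-N autosomal sequence (log scale) for the 8 lists, by distance in kb to the nearest protein-coding gene start, with the 6 desert classes shaded. H3K27me3 drops to 0.127 (WT) and 0.191 (KO) per Mb at 1000 to 1500 kb, while KO H3K9me3 stays between 38.4 and 44.8 per Mb in the shaded classes.

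To ask how the repressive marks differed between genotypes far from genes, KO and WT summit counts were compared. H3K9me3 had 11800 desert summits in KO and 6231 in WT cells, a ratio of 1.89 (95% exact interval 1.84 to 1.95). In the rest of the autosomes of the same libraries the order was the opposite, with 119630 in KO and 135426 in WT cells and a ratio of 0.883 (0.877 to 0.890). The deserts thus held 8.98% of the KO autosomal summits and 4.40% of the WT ones. The ratio climbed with distance from coding starts, from 0.318 (0.306 to 0.331) within 2 kb to 1.14 at 100 to 200 kb, 1.83 at 500 to 600 kb and 2.32 (2.06 to 2.62) at 1500 kb or more. Deserts therefore lay at the upper end of a gradient that ran across the whole autosomal genome. Its lower end went with the high WT density at coding starts, 132 per Mb within 2 kb against 42.1 in KO cells.

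**Figure D2:**
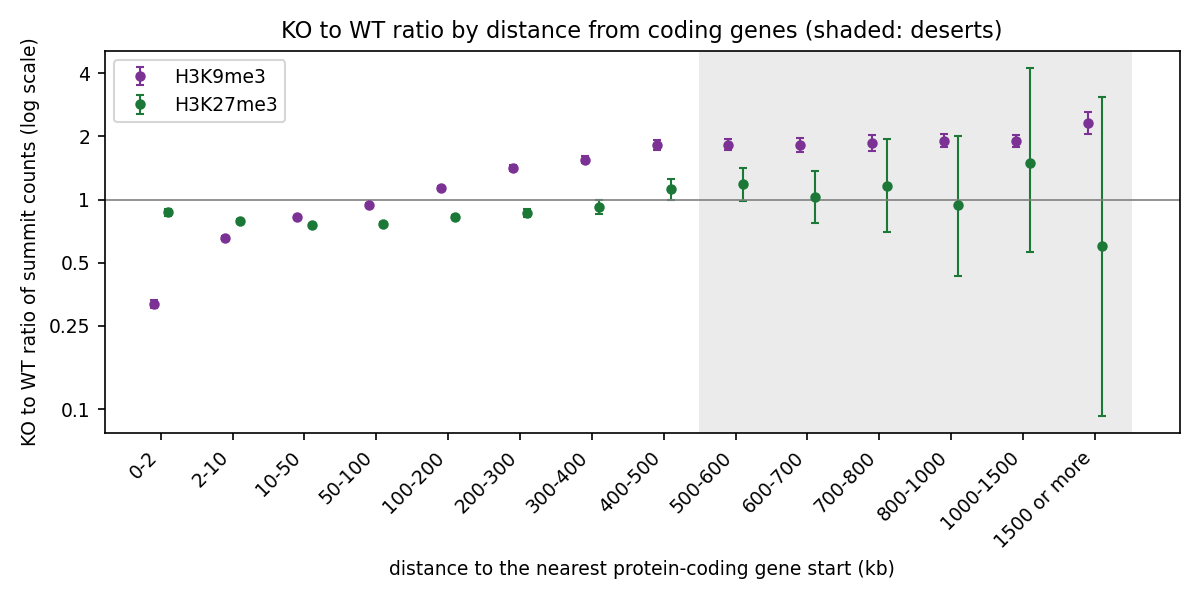
KO to WT ratio of summit counts (log scale) by distance in kb to the nearest protein-coding gene start, for H3K9me3 and H3K27me3, with 95% exact intervals of counting error and deserts shaded. The H3K9me3 ratio passes from 0.318 next to coding starts to 2.32 at 1500 kb or more, and the H3K27me3 intervals reach 1 in all the shaded classes.

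The higher KO count of H3K9me3 was spread over many deserts. KO exceeded WT in 317 of the 374 deserts, WT exceeded KO in 26, the counts were equal in 14, and 17 deserts had no H3K9me3 summit in either list. Among the 225 deserts with at least 20 H3K9me3 summits over both genotypes, 208 had more in KO, and the median KO to WT ratio was 1.91 (quartiles 1.41 and 2.50). All 19 autosomes had more KO than WT desert summits. The desert ratio was lowest on chromosome 13, at 1.43, and highest on chromosome 19, at 4.06. On each autosome it exceeded the ratio of that chromosome's other sequence, by a median factor of 2.04, whereas only 5 autosomes had more KO summits outside deserts. Deserts of 1 library are not replicates, and these counts describe the 2 libraries compared.

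**Figure D3:**
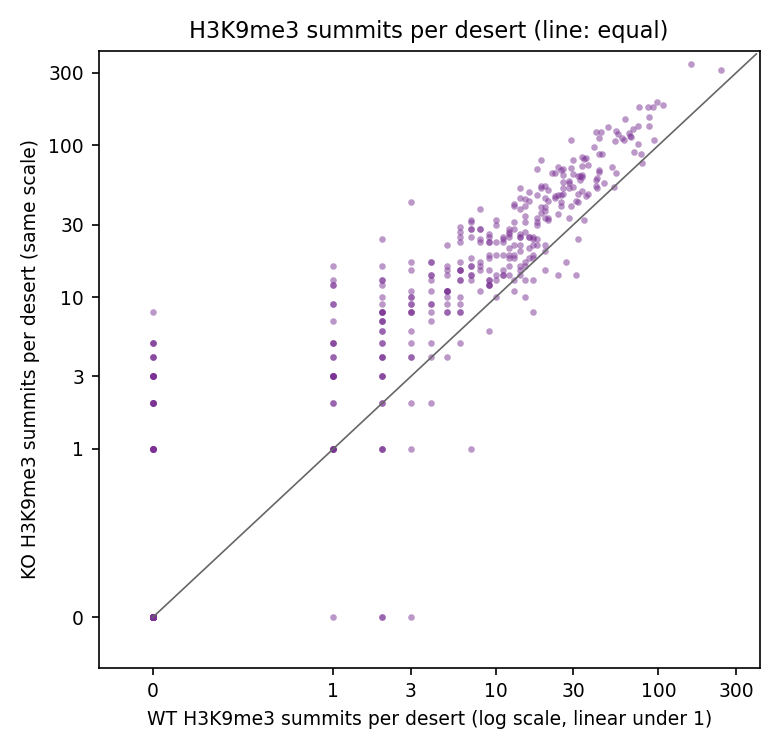
H3K9me3 summits in WT (x axis) and KO (y axis) cells for each desert, both on a log scale that is linear under 1, with the line of equal counts. Of the 374 deserts with sequence, 317 lie above the line and 26 below it.

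Base composition moved with this difference. KO H3K9me3 summits in deserts had a median GC of 41.7% over 250 bp on each side, against 43.9% in WT cells. Outside deserts the medians were 44.1% in KO and 46.7% in WT cells, so the KO list was lower in GC in both places. The desert ratio of KO to WT was 2.91 (2.71 to 3.11) for summits under 38% GC and 1.29 (1.22 to 1.36) for those of 46% GC or more. Within each of the 4 GC bands, however, the desert ratio was higher than that outside deserts, by a factor of 1.57 to 2.19. The same held for masked summits, with 1.81 in deserts and 1.14 elsewhere, and for unmasked ones, with 2.10 and 0.730. Inside coding gene bodies the ratios were 1.59 and 0.679, and outside gene bodies 1.93 and 1.06. The part that a difference in GC bias between the libraries takes in the ratio of 1.89 was not tested.

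Strong H3K9me3 summits showed a smaller excess. With a −log10 q-value of 5 or more the deserts held 293 WT and 444 KO summits, a ratio of 1.52 (1.30 to 1.76), beside 1.06 (1.02 to 1.10) in the rest. At a value of at least 10 only 12 WT and 8 KO summits were left, a ratio of 0.667 (0.236 to 1.77), beside 0.915 (0.776 to 1.08) in the rest. The KO desert summits without a WT summit within 1 kb numbered 8700, and 1.38% of them (1.15 to 1.65) reached a value of 5. Of the 3100 KO summits with a WT partner, 10.5% (9.42 to 11.6) did. Outside deserts the same shares were 1.78% and 10.8%, so the weakness of unshared summits was common to the whole KO list.

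For H3K27me3 the KO to WT ratio was also higher in deserts than elsewhere, by a factor of 1.43 beside 2.14 for H3K9me3. Its desert counts of 382 in WT and 430 in KO cells gave a ratio of 1.13 (0.978 to 1.30), beside 0.786 (0.779 to 0.793) in the rest. The 2 intervals did not overlap, and the desert interval included 1. Both treat summits as independent, yet 41.3% of the WT and 47.4% of the KO gaps between desert summits were within 3 kb. The intervals are therefore too narrow, and their lack of overlap does not settle a difference between deserts and the rest. More deserts lacked the mark than held it. There were 261 of 374 without a summit in either genotype, and KO was higher in 53 and lower in 50. Counts were concentrated, since the single desert between Sall3 and Galr1 on chromosome 18 held 78 of the 382 WT and 97 of the 430 KO summits. Without it the ratio was 1.10 (0.935 to 1.28). Summits of at least 5 numbered 10 in WT and 25 in KO cells, a ratio of 2.50 whose interval was wide, from 1.16 to 5.83.

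Strength within a list separated the antibodies further. The −log10 q-value belongs to a library, so it was compared only between deserts and the rest of the same list. Ctcf summits in deserts were about as strong as elsewhere, with 43.7% (41.2 to 46.3) at 5 or more against 40.9% in the rest and the same median of 4.02. At 10 or more the Ctcf shares were 25.6% (23.4 to 27.9) and 27.1%, and the upper quartiles were 10.6 and 11.6. Rad21 was somewhat weaker, at 21.1% (19.3 to 23.1) against 26.0%. Arid1a and Brg1 lost most of their strong summits. Arid1a had 17 of 3251 at 5 or more, or 0.523% (0.327 to 0.836) against 2.58%, and Brg1 had 38 of 3420, or 1.11% (0.811 to 1.52) against 4.06%. Neither subunit had a desert summit at 10 or more, which allows a share of up to 0.118% for Arid1a and 0.112% for Brg1 (Wilson), while the rest of the autosomes held 0.114% for Arid1a and 0.150% for Brg1. For Arid1a this bound lay barely above the share in the rest, so whether the absence from deserts exceeds counting error is not settled. H3K27me3 was weaker too, at 2.62% in deserts against 11.4% for WT and 5.81% against 11.8% for KO. At 5 or more H3K9me3 went in opposite directions in the 2 genotypes. For WT the share was 4.70% (4.20 to 5.26) in deserts against 4.06% in the rest, and for KO 3.76% (3.43 to 4.12) against 4.85%. At 10 or more both were lower in deserts, on 12 WT and 8 KO summits. These shares were 0.193% (0.110 to 0.336) against 0.227% for WT and 0.0678% (0.0344 to 0.134) against 0.235% for KO. Medians in deserts and the rest were equal for both H3K9me3 lists, Arid1a, Brg1 and Ctcf, and lower in deserts for H3K27me3 (2.29 against 2.55 in WT and 2.42 against 2.75 in KO cells). The quartiles of both H3K9me3 lists were equal too, although their shares at 5 or more differed. Equal medians therefore say little about the strong summits.

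Repeat sequence lay under most H3K9me3 summits of the deserts. The share at a soft-masked base was 72.1% for WT (95% Wilson interval 70.9 to 73.2) and 69.0% for KO (68.1 to 69.8), where 40.1% of all desert bases were masked. Outside deserts it was 37.7% and 48.5%, against 32.6% of bases, so in WT cells the mark was near the level of the sequence outside deserts and far above it inside them. Of the strong desert summits, 91.8% (88.1 to 94.4) of the WT and 87.8% (84.5 to 90.6) of the KO list were masked. Position shared between the genotypes went with repeats as well. Desert KO summits with a WT partner were masked in 82.1% (80.7 to 83.4) of cases and those without one in 64.3% (63.3 to 65.3).

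The other antibodies kept away from repeats or matched the sequence. Arid1a summits were masked in 39.2% (37.6 to 40.9) of cases in deserts, close to the 40.1% of the sequence, and Brg1 summits in 33.7% (32.1 to 35.3). Ctcf was at 25.8% (23.6 to 28.1), H3K27me3 at 23.3% in WT and 17.4% in KO cells, and Rad21 at 34.1% (31.9 to 36.3). Rad21 split by its partner. With a Ctcf summit within 1 kb, 20.6% (17.8 to 23.7) of 720 desert Rad21 summits were masked, and without one 43.9% (40.8 to 47.0) of 994 were. In the rest of the autosomes these shares were 19.98% and 23.2%, much closer together. GC content followed the antibody too, with medians of 37.3% for Arid1a and 36.9% for Brg1 in deserts, near the 37.8% of the sequence, and 46.5% and 47.1% for WT and KO H3K27me3. CpG dinucleotides, counted over 50 bases on each side, averaged 1.42 at WT H3K9me3, 1.35 at WT H3K27me3 and 0.580 at Arid1a desert summits. At positions moved by 2 kb the averages were 0.891, 0.908 and 0.549.

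**Figure D4:**
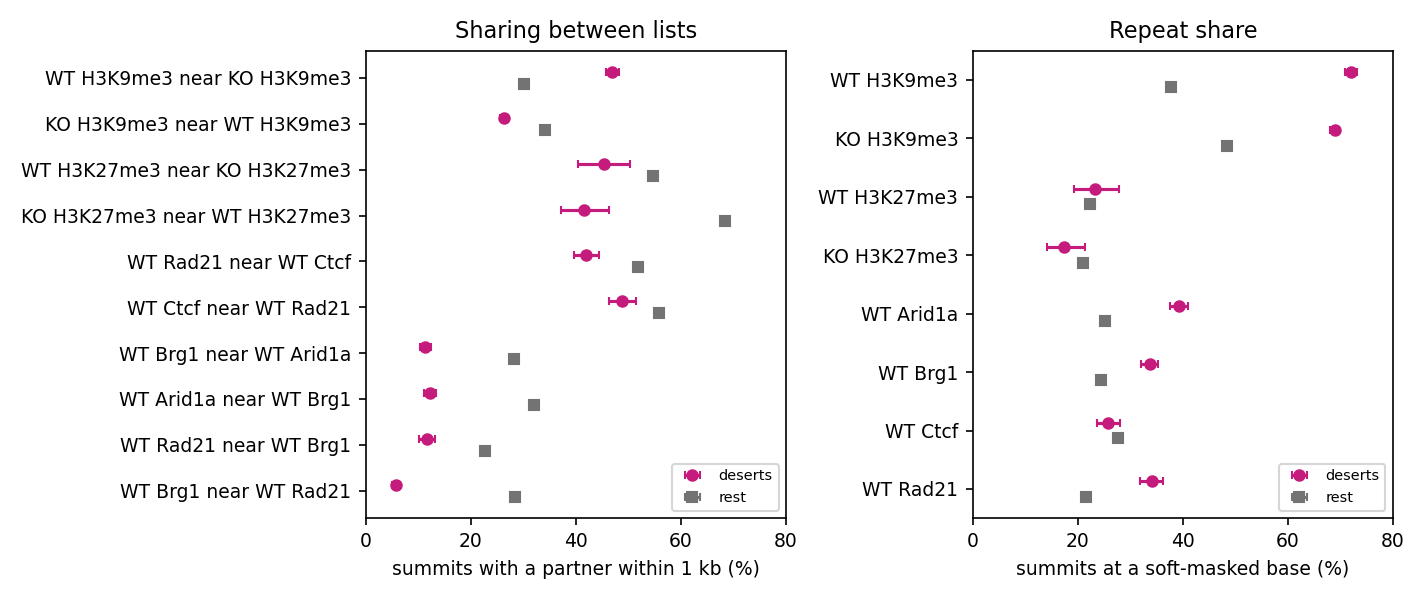
Left, share of the summits of a list (in percent) with a summit of a second list within 1 kb. Right, share (in percent) at a soft-masked base of the reference. Circles are deserts and squares the rest of the autosomes, with 95% Wilson intervals of counting error. WT H3K9me3 is shared and masked more often in deserts (47.0% and 72.1%) than elsewhere, and Brg1 near Arid1a drops from 28.3% to 11.3%.

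Sharing between lists was read against the share of sequence that lies within 1 kb of the second list, since this share is small in deserts. A sparse second list raises the highest value that the ratio of the 2 shares can reach. A higher ratio in deserts is therefore no measure of closer sharing there. Of WT H3K9me3 desert summits, 47.0% (45.7 to 48.2) had a KO summit within 1 kb, against 30.1% in the rest and 30.9% over all autosomes. Only 7.33% of desert sequence lay that close to a KO summit, which gives 6.41 times the share of sequence, beside 2.99 times in the rest. Seen from the KO list, 26.3% (25.5 to 27.1) had a WT summit, against 34.1% in the rest and 33.4% over all autosomes, and this was 6.79 times the share of desert sequence. The KO list was 1.89 times as long in deserts, which by itself makes the 2 shares unequal. For H3K27me3, 45.3% (40.4 to 50.3) of WT desert summits had a KO partner, against 54.6% over all autosomes. In the KO direction 41.6% (37.1 to 46.3) had a WT partner, against 68.3% over all autosomes. The corresponding ratios to the share of sequence were 177 and 175. Both lists were crowded into few deserts, and a ratio of this kind rises with such crowding.

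Ctcf and Rad21 coincided somewhat less often in deserts than elsewhere. Of desert Rad21 summits, 42.01% (39.7 to 44.4) had a Ctcf summit within 1 kb, at a median distance of 95 bp, against 51.9% in the rest and 51.7% over all autosomes. Among those of at least 5 the share was 90.3% in deserts and 88.9% in the rest. Of desert Ctcf summits, 48.8% (46.3 to 51.4) had a Rad21 summit, against 55.9% in the rest and 55.8% over all autosomes. For Ctcf summits of at least 5 the share was 76.2% (72.8 to 79.4), against 82.6% in the rest. Only 0.933% of desert sequence lay within 1 kb of a Ctcf summit, against 7.44% in the rest. Rad21 near Ctcf reached 45.03 times the share of sequence in deserts and 6.98 times in the rest. The gap between these ratios went with the sparser Ctcf list in deserts, where the share itself was lower.

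Brg1 and Arid1a, subunits of the same complex, were listed together less often in deserts than elsewhere. Of desert Brg1 summits, 11.3% (10.3 to 12.4) had an Arid1a summit within 1 kb, against 28.3% in the rest and 27.6% over all autosomes. From the Arid1a side the share was 12.2% (11.1 to 13.3), against 32.0% in the rest and 31.1% over all autosomes. For Brg1 near Arid1a the share was 5.13 times the share of sequence in deserts and 4.78 times in the rest. Brg1 lay within 1 kb of 11.6% (10.1 to 13.2) of desert Rad21 summits, against 22.5% over all autosomes, and Rad21 lay as near to 5.67% (4.95 to 6.50) of Brg1 summits, against 27.5% over all autosomes. These were 5.01 and 5.12 times the share of sequence, beside 3.35 and 3.47 times in the rest.

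Most desert summits stood alone. Of the 28672, 58.1% had no summit of another list within 1 kb, against 31.7% in the rest of the autosomes. A further 33.0% had 1 other list there, against 37.8%, and 11 summits (0.0384%) lay where 6 lists met, against 0.421%. No desert summit had 7 or 8 lists, which were rare in the rest as well, at 0.0468% and 0.00462%. The share standing alone was 68.9% for Brg1, 68.3% for Arid1a and 66.5% for KO H3K9me3, against 36.4%, 36.5% and 48.3% of the same lists in the rest. It was 44.7% for WT H3K9me3, 37.5% for Ctcf and 32.6% for Rad21, against 35.6%, 21.7% and 19.1% in the rest. KO H3K9me3 summits had a WT Arid1a summit within 1 kb in 4.58% (4.21 to 4.97) of cases and WT H3K9me3 summits in 6.10% (5.53 to 6.72), where 2.21% of desert sequence was that close to Arid1a. In the rest these shares were 7.22% and 13.3%, beside 5.91% of sequence.

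The Ctcf core CCANNAGNNGGC, searched on both strands within 50 bases of the summit, was present at 205 of 1444 desert Ctcf summits, or 14.2% (12.5 to 16.1). It was present at 14.4% of Ctcf summits in the rest, and at 0.416% of desert positions moved by 2 kb. At desert Ctcf summits of 10 or more the share was 28.2% (23.8 to 33.0), and at those in the rest 30.9% (30.3 to 31.5). Most strong Ctcf summits thus lacked an exact match in both places. The absence of this string therefore does not show that a site has no Ctcf motif. Rad21 carried the core at 5.02% (4.08 to 6.16) of its desert summits, against 6.94% in the rest and 0.0583% of moved desert positions. Arid1a and Brg1 did not exceed their moved positions, with 0.154% and 0.175% of desert summits beside 0.215% and 0.380%. Along the deserts, 129 Ctcf summits had both a Rad21 summit within 1 kb and the core. Neighbours among them within a desert pointed toward each other in 8 pairs, away from each other in 10 and the same way in 22. The letters TGANTCA, searched within 50 bases after the other results had been seen, were present at 5 of the 38 desert Brg1 summits of at least 5, or 13.2% (5.75 to 27.3), beside 2.63% of the same 38 positions moved by 2 kb. Strong Brg1 summits in the rest carried them at 3.95%, with 3.51% at moved positions. Over the whole Brg1 list the shares were 3.83% in deserts and 3.74% in the rest, beside 3.36% and 2.98% at moved positions. Of the 17 strong desert Arid1a summits 1 had them, against 2 at moved positions, so the Brg1 share rests on 5 sites.

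Deserts of different chromosomes were not alike. Chromosome 10 had 51.2 Arid1a and 49.0 Brg1 desert summits per Mb, which is 6.27 and 5.004 times the median autosome. Chromosome 14 had 0.899 and 1.26 per Mb. H3K9me3 was likewise densest on chromosome 10 and sparsest on chromosome 14, with 58.2 (WT) and 105 (KO) per Mb in the deserts of chromosome 10 and 11.2 and 16.7 in those of chromosome 14. Chromosomes 2 and 5 were also high for Arid1a, at 22.7 and 21.8 per Mb, and chromosome 13 was low, at 2.09. Ctcf varied less, with its lowest density at 2.86 per Mb (chromosome 17) and its highest at 8.27 (chromosome 10). Outside deserts Arid1a also stood high on chromosome 10, at 2.20 times the median autosome, and low on chromosome 14, at 0.155 times. Deserts and the rest of a chromosome did not always go together. On chromosome 11 Arid1a stood at 0.654 times the median autosome in deserts and 1.48 times outside them, and on chromosome 18 WT H3K27me3 at 8.77 and 0.734 times. Without chromosome 10 the ratio of desert to other density was 0.303 (0.291 to 0.316) for Arid1a and 0.279 (0.268 to 0.290) for Brg1, and 0.317 and 0.686 for WT and KO H3K9me3.

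**Figure D5:**
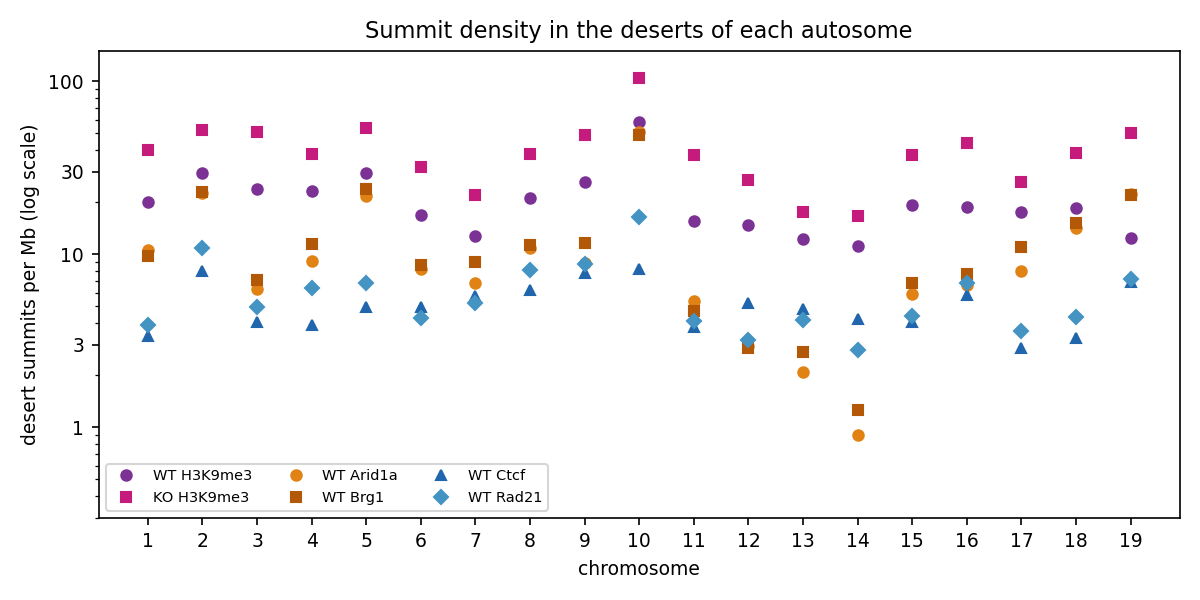
Desert summits per Mb of non-N sequence (log scale) on each autosome for 6 of the 8 lists. Arid1a runs from 0.899 on chromosome 14 to 51.2 on chromosome 10, and Ctcf only from 2.86 to 8.27.

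The desert densest in H3K9me3 over both genotypes was the interval between Gje1, a connexin gene, and Cited2, which encodes a transcriptional co-regulator, at chr10:15218214-17223218. It held 244 WT and 314 KO H3K9me3 summits, 195 Arid1a, 222 Brg1, 61 Rad21 and 11 Ctcf summits, and H3K27me3 in 0 (WT) and 1 (KO) places. Arid1a reached 97.3 and Brg1 111 summits per Mb in it. The other deserts of chromosome 10 had 44.2 and 39.6 per Mb, and the 500 kb on each side of this desert 86.0 and 92.0. H3K9me3 stood at 48.5 (WT) and 97.5 (KO) per Mb in those other deserts and at 131 and 144 in the flanks. In this desert the H3K9me3 values were 122 and 157, so the high density was not confined to it. The strongest Ctcf and Rad21 summits of all deserts lay near its left end, 38 bp apart, with −log10 q-values of 70.6 and 67.7 at 582 kb from Gje1. Their shared core is the first of the printed Ctcf sequences. Next by H3K9me3 density came a stretch of 0.156 Mb between Nyap2 and Gm9747 on chromosome 1, with 18 WT and 24 KO summits, and one of 0.0301 Mb between Gdf6 and 2610301B20Rik on chromosome 4, with 4 and 4.

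In the 3 longest deserts H3K9me3 was the most frequent of the marks and factors. Between the protocadherin genes Pcdh20 and Pcdh9 on chromosome 14, 4.42 Mb held 67 WT and 115 KO H3K9me3 summits, 6 Arid1a, 18 Brg1, 18 Ctcf and 18 Rad21 summits and no H3K27me3. Of its Rad21 summits, 14 had Ctcf within 1 kb. Between Cntnap5b and the cadherin gene Cdh20 on chromosome 1, 3.996 Mb held 41 WT and 123 KO H3K9me3 summits, again with 0 of H3K27me3. Between the teneurin gene Tenm3 and Aga on chromosome 8, 3.67 Mb held 55 and 124 H3K9me3 summits, and 6 WT and 3 KO H3K27me3 summits.

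Rad21 summits with Ctcf were most numerous in 3 deserts. That between Pde4d, a cAMP phosphodiesterase gene, and Rab3c on chromosome 13 had 18, and 100% of its 0.831 Mb lay inside a coding gene body. The desert between Dmac1 and Ptprd, a receptor tyrosine phosphatase gene, on chromosome 4 had 16, with 91.6% of its sequence in gene bodies. The interval between Ywhaq, a 14-3-3 protein gene, and Gm10330 on chromosome 12 had 17 without any coding gene body, and also 107 WT and 183 KO H3K9me3 summits in 1.36 Mb.

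Of the 3 deserts with the most H3K27me3, 2 bordered a spalt gene. The desert between Sall3, which encodes a zinc finger transcription factor of this family, and Galr1, a galanin receptor gene, on chromosome 18 held 78 WT and 97 KO summits in 0.420 Mb. The interval between Tbc1d22a and Fam19a5 on chromosome 15 held 18 and 47, and that between Sall1, a paralogue of Sall3, and Tox3 on chromosome 8 held 11 and 27. The same 3 deserts held 5 and 11, 7 and 31, and 4 and 14 H3K9me3 summits in WT and KO cells.

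The strongest single summits gave these patterns at the level of sites. For Ctcf, the summit at 4:84064817 had a −log10 q-value of 65.4, lay 539 kb downstream of the start of Ccdc171 and carried the core, with Rad21 at 30 bp (36.5), Arid1a at 266 bp (2.70) and Brg1 at 634 bp (5.96). The third, at 2:97466297, reached 62.2 inside the body of Lrrc4c, a netrin-G ligand gene, 1148 kb from its start, with Rad21 75 bp away at 41.0. It had no exact match to the core within 50 bases. The Rad21 summit at 8:32008706 had a value of 54.9 in the body of the neuregulin gene Nrg1, 202 bp from the start of the lincRNA Gm26578, with Ctcf 56 bp away at 46.3.

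For H3K9me3, the WT summits ranked highest lay at 2:108049546 (17.5), 4:93956013 (11.3) and 1:140966056 (11.1), at 759 kb from the potassium channel gene Kcna4, 601 kb from Gm10306 and 720 kb from another channel gene, Kcnt2. In all 3 every base of the surrounding window was masked, and a KO summit lay 8, 38 and 180 bp away, at 3.16, 5.30 and 4.53. In the KO list the highest was 16:86820969 (16.3), 533 kb upstream of N6amt1 and inside the lincRNA Gm32624, with no summit of any other list within 1 kb. Its window was unmasked but repeated itself with a period of 52 bp, at which 67.4% of bases within 300 bp on each side matched, against a median of 25.3% over periods of 10 to 200 bp. The other 2, at 1:141036483 and 11:10437304 with 12.6 each, were masked throughout and had WT summits 38 and 35 bp away.

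For H3K27me3, the highest WT and KO summits were the same place, 11 bp apart at 5:119085810 and 5:119085821, with values of 10.9 and 12.5, 525 kb downstream of the start of Med13l, a gene of the Mediator kinase module. Another strong WT summit, 18:81648741 (9.44), lay 200 bp from the start of the lincRNA AC102255.2. The next in KO were 9:29411534 (9.74), in the body of Ntm, and 8:50916335 (9.25), 662 bp from the start of the lincRNA C130073E24Rik.

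For SWI/SNF, the highest desert values were far lower. Arid1a reached 6.22 at 8:50602568, 1759 kb from Tenm3, where both H3K9me3 lists and Rad21 also had a summit, and 5.63 and 5.44 at 10:56975340 and 1:142335313, where no other list did. Brg1 reached 7.39 at 10:16621377, 1102 kb from Cited2, 6.70 at 5:47433652, which stood alone, and 6.64 at 10:46785736. The last is the Brg1 sequence printed above, 1208 kb from Hace1, and had Rad21 at 81 bp (3.94), Arid1a at 111 bp (3.33) and H3K9me3 at 751 bp in WT (7.64) and 785 bp in KO cells (5.30). The other 2 of these Brg1 summits had no TGANTCA within 50 bases. Of the loci held by most lists, 5:40692372 joined Ctcf (12.5), Rad21 (8.85), Brg1 (6.74), Arid1a (2.43) and H3K9me3 of both genotypes, 937 kb from Hs3st1. The second, 18:55547454, joined the same 6 lists with no value above 3.24, and the Ctcf summit near Ccdc171 followed, with 5 lists.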

How the data were processed

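Peak lists of 8 ChIP-seq libraries were analysed, and the 2 inputs were not used here beyond the calling. Following the study's methods and the submitters' processing notes, the authors aligned reads to mm10 with Bowtie2, filtered with SAMtools and Picard, and called peaks with MACS2; versions are not given in the sources used here. The deposited lists gave a summit position and a value read here as the −log10 q-value assigned by the authors' MACS2 run, since no value was under 1.30. Depth is unknown. Positions are 1-based in mm10 (GRCm38).

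Distances were taken to the outermost starts of 20807 autosomal protein-coding genes of GENCODE M21. Densities used non-N bases. Density and count ratios carry exact (Clopper-Pearson) and shares Wilson 95% intervals. Partners lay within 1 kb. Counting was tested on simulated lists. Python 3 with numpy, pandas and scipy was used.

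Named were, per list, the 3 desert summits of highest −log10 q-value outside loci of 6 or more lists, the 3 loci with most lists, and the 3 deserts that were longest, densest in H3K9me3, or richest in Rad21 with Ctcf or in H3K27me3. One summit that this rule names is not reported here. Members and lists were chosen with earlier results of these data known. Alternatives are given in the closing section.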

Additional observations from a re-analysis of the deposited data

Results flagged for a closer look

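The X chromosome was outside the definition used above and forms data that entered none of the comparisons. Deserts by the same distance covered 15.9 Mb of its non-N sequence. They held 120 WT and 214 KO H3K9me3 summits, 5 Arid1a, 9 Brg1, 18 Ctcf and 8 Rad21 summits, each above the 3 summits that a count of 0 allows. H3K27me3 had 2 in WT and 1 in KO cells, which is not above that limit. The densities were 7.55 (WT) and 13.5 (KO) per Mb for H3K9me3, beside 21.7 and 41.1 in autosomal deserts.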

How the results depend on the processing

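Each value was recomputed under 124 alternatives in all, of which 44 stayed within the 95% counting interval of the reported value (for medians, within its quartiles) and 80 moved outside it. None turned a ratio to the other side of 1 where the reported interval lay on one side. A minimum value of 10, which gave the H3K9me3 ratio of 0.667 above, was not among the 124. Leaving out loci of 6 or more lists kept every density ratio, KO to WT ratio, partner share and median inside that range. This setting could move little, since only 11 of the 28672 desert summits lay at such loci. The alternatives without chromosome 10 and without the most populated desert were chosen after seeing the data.

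The ratio of desert to other density is given in the order WT H3K9me3, KO H3K9me3, WT H3K27me3, KO H3K27me3, Arid1a, Brg1, Ctcf and Rad21. At 1 Mb or more it became 0.317, 0.694, 0.00320, 0.00470, 0.338, 0.305, 0.0774 and 0.0757. Keeping only −log10 q-values from 5 upward it became 0.391, 0.562, 0.00593, 0.0182, 0.0724, 0.0882, 0.129 and 0.104. Counting summits closer than 3 kb once gave 0.364, 0.742, 0.0421, 0.0515, 0.419, 0.399, 0.155 and 0.173. With the starts of all annotated genes only 2.38 Mb in 30 stretches remained, and the values were 0.199, 0.428, 0.0185, 0.0352, 0.301, 0.198, 0.214 and 0.191. At 300 kb the ratio moved to 0.352 for WT H3K9me3, 0.0813 and 0.104 for WT and KO H3K27me3, 0.145 for Ctcf and 0.158 for Rad21. Without chromosome 10 it moved to 0.317 and 0.686 for WT and KO H3K9me3, 0.303 for Arid1a, 0.279 for Brg1 and 0.118 for Rad21.

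The KO to WT ratio of H3K9me3 was 1.77 at 300 kb, 2.002 at 1 Mb and 1.52 at a value of at least 5, and that of H3K27me3 was 2.50 at the last setting.

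Partner shares are given in the order WT near KO H3K9me3, WT near KO H3K27me3, Rad21 near Ctcf, Brg1 near Arid1a and Rad21 near Brg1. Within 500 bp they were 31.9%, 31.9%, 36.1%, 7.28% and 7.001%, and within 5 kb 73.4%, 67.3%, 55.4%, 32.0% and 29.6%. With a value of at least 5 in both lists they were 30.03%, 60.0%, 85.1%, 0% (0 of 38 summits, with a Wilson upper bound of 9.18%) and 0.829%. This setting also shortened the partner lists, to 444 KO H3K9me3, 17 Arid1a and 38 Brg1 desert summits, which by itself lowers a share. With the full partner list, the share for summits of at least 5 was 87.4% for H3K9me3 and 90.3% for Rad21 near Ctcf. It was 44.7% (30.1 to 60.3) for Brg1 near Arid1a and 13.8% (10.6 to 17.7) for Rad21 near Brg1. At 300 kb the partner shares of all summits moved to 43.8% for H3K9me3 and 12.8% for Brg1 near Arid1a. At 1 Mb they moved to 52.6% (H3K9me3), 30.8% (H3K27me3), 9.97% (Brg1 near Arid1a) and 13.8% (Rad21 near Brg1).

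The masked share at a value of at least 5 moved to 91.8% and 87.8% for WT and KO H3K9me3, 12.0% for KO H3K27me3, 29.4% for Arid1a, 28.9% for Brg1, 17.7% for Ctcf and 17.1% for Rad21. Requiring most of the surrounding bases to be masked moved it to 17.8% for WT H3K27me3, 33.7% for Arid1a, 29.9% for Brg1, 21.5% for Ctcf and 30.05% for Rad21. Within 100 bases of the summit the Ctcf core was found at 20.2% of Ctcf and 8.75% of Rad21 desert summits. The cause of these shifts was not tested. No paired analysis was possible because each group is 1 library and the labels carry no replicate numbers.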
